A study of Mus musculus with 11 samples.

Results

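Among 11 bulk RNA-seq libraries of mouse leukaemia, 5 carried abundant transcripts of the early B-cell programme and 6 did not, and the 2 sets are compared here across the genes of the genome. The sides were chosen from measured values: a library was placed on the Ebf1-high side where Ebf1 reached 100 CPM (counts scaled to a library total of 1000000) and on the Ebf1-low side otherwise. Ebf1 is the transcription factor that commits progenitors to the B lineage. All 11 libraries are labelled as acute myeloid leukaemia (AML) from mice with Flt3-ITD, an internal tandem duplication that leaves the cytokine receptor Flt3 active, and NHD13, the NUP98-HOXD13 fusion transgene. The series' design text speaks of haematopoietic progenitor cells, and no age, treatment or time is given in the labels. The Ebf1-high side held Ifnar1 +/- libraries 3, 4 and 5 and Ifnar1 -/- libraries 3 and 5. The Ebf1-low side held Ifnar1 +/- libraries 1, 2 and 6 and Ifnar1 -/- libraries 1, 2 and 4. Ifnar1 encodes a subunit of the type I interferon receptor, and no library with 2 intact Ifnar1 copies is among the groups. The promoter that drives the transgene is not given in the labels, and nothing there says whether libraries of a genotype came from separate mice.

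B-cell development in the marrow starts when E2A proteins (Tcf3) and Ebf1 switch on Pax5, and these factors together maintain the genes of the pre-B-cell receptor. That receptor pairs an immunoglobulin mu heavy chain with the surrogate light chain, made of the Igll1 and Vpreb proteins, and signals through Cd79a and Cd79b. Rag1 and Rag2 cut the immunoglobulin loci for recombination at the same stage. Gata1, Gata2 and Mecom belong instead to stem, erythroid, megakaryocytic and mast cells, and Gata factors are known to favour myeloid and erythroid over lymphoid fates in progenitors.

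Ebf1 itself fell into 2 ranges with a wide gap between them. On the plain CPM scale of the rule, the Ebf1-high libraries had 806, 693, 692, 687 and 588 CPM, in the order Ifnar1 +/- 3, 4 and 5 and Ifnar1 -/- 3 and 5, the order kept for all values of that side below. The Ebf1-low libraries had 1.26, 8.95, 0.346, 0.0349, 0.0351 and 0.0389 CPM, in the order Ifnar1 +/- 1, 2 and 6 and Ifnar1 -/- 1, 2 and 4. The nearest libraries to the threshold were thus Ifnar1 -/- 5 above it and Ifnar1 +/- 2 below it, and thresholds of 50 or 200 CPM give the same sides. Ebf1 (ENSMUSG00000057098) lies on chr11:44617317-45008091 of GRCm38, plus strand. All other levels are CPM scaled with TMM factors, which even out differences in composition between libraries, and folds are Ebf1-high over Ebf1-low from a fit with genotype as a covariate.

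Library totals ran from 25583642 to 38728143 estimated counts, 25583642 to 38728143 on the Ebf1-high side and 25724241 to 34697665 on the Ebf1-low side. Between 13265 and 14730 genes had at least 10 counts. Ptprc, the pan-leukocyte antigen, was at 159 to 187 CPM on the Ebf1-high side and 107 to 617 CPM on the Ebf1-low side. Among markers of immature granulocyte-monocyte cells, Mpo did not exceed 53.7 CPM, Elane 33.5 CPM and Cebpa 0.681 CPM in any library. Late neutrophil genes ranged far more widely, with a summed level of 24.3 to 37990.1 CPM over the 11 libraries, and monocyte and macrophage genes summed to 150.3 to 5734 CPM. Ifnar1 -/- library 2 stood apart within the Ebf1-low side. Its mean distance to the other Ebf1-low libraries (1 minus the Spearman correlation, taken over the 2000 genes of highest variance) was 0.556, against 0.229 among those others, and the calls that change without it are given below. In bulk RNA, fewer cells of a type and less RNA per cell cannot be told apart, and this holds for every level below.

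The sides differed widely across the transcriptome. The mean distance between a library of one side and a library of the other was 0.815, against 0.177 within the Ebf1-high side and 0.338 within the Ebf1-low side. Of 14520 genes tested, 2181 were called higher on the Ebf1-high side (15.0%) and 2200 lower (15.2%), where called means an edgeR adjusted p under 0.05. Because the sides were cut from Ebf1, these calls describe the split and are not evidence for it. In 1833 genes (12.6%) every Ebf1-high library lay above every Ebf1-low library, and in 1248 genes (8.60%) every one lay below. Of the called genes, 1680 of the higher and 1198 of the lower were separated in this way. Leaving out Ifnar1 -/- library 2 gave 2711 higher and 2845 lower genes, and leaving out Ifnar1 +/- library 5 gave 1410 and 1402. Of the 134 genes that were called and are named here, 96 kept the call in all 11 fits that leave out 1 library, and Enpep and Galnt14 kept it in the 8 of those fits in which they passed the filter on low values. The 36 that lost it in at least 1 fit were Add2, Arg1, Bcl2l11, Bid, Bst1, Ccnd1, Cebpb, Cr2, Dusp6, Egr1, Hbb-bs, Hmga2, Hoxb3, Hoxb5, Idh1, Idh2, Ifi27, Ifnar2, Il1rl1, Il2rg, Isg15, Itga4, Itga5, Ly6a, Mitf, Nhej1, Nkg7, Oasl1, Osm, Pmaip1, Rsad2, Rtp4, Siglecf, Slc7a11, Tal1 and Zbtb46. None of the 134 changed direction in these fits. Without Ifnar1 -/- library 2, calls were gained higher for Syk, Bcl11a, Ikzf1, Hoxa7 and Igf2bp3 and lower for Mecom, Kit, Gzmb, Hba-a1 and Mcl1, and lost for Ccnd1, Egr1 and Siglecf. Blk and Dntt, which did not pass the filter with all 11 libraries, were tested without that library and called higher. The filter asks for enough counts in as many libraries as the smaller genotype group holds, so leaving out any Ifnar1 -/- library eases it. The calls of Blk and Dntt describe their levels and are no support for the split. The largest moves among named genes called both with and without Ifnar1 -/- library 2 were those of Aspa, Slc7a11, Bst1, Cebpb, Rgs1 and Cd33. The log2 fold change of Bst1 went from 4.46 ± 1.33 to 6.12, that of Cebpb from -3.67 ± 1.07 to -2.04, that of Rgs1 from -4.96 ± 1.21 to -3.53 and that of Cd33 from -3.84 ± 0.89 to -2.70.

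**Figure D1:**
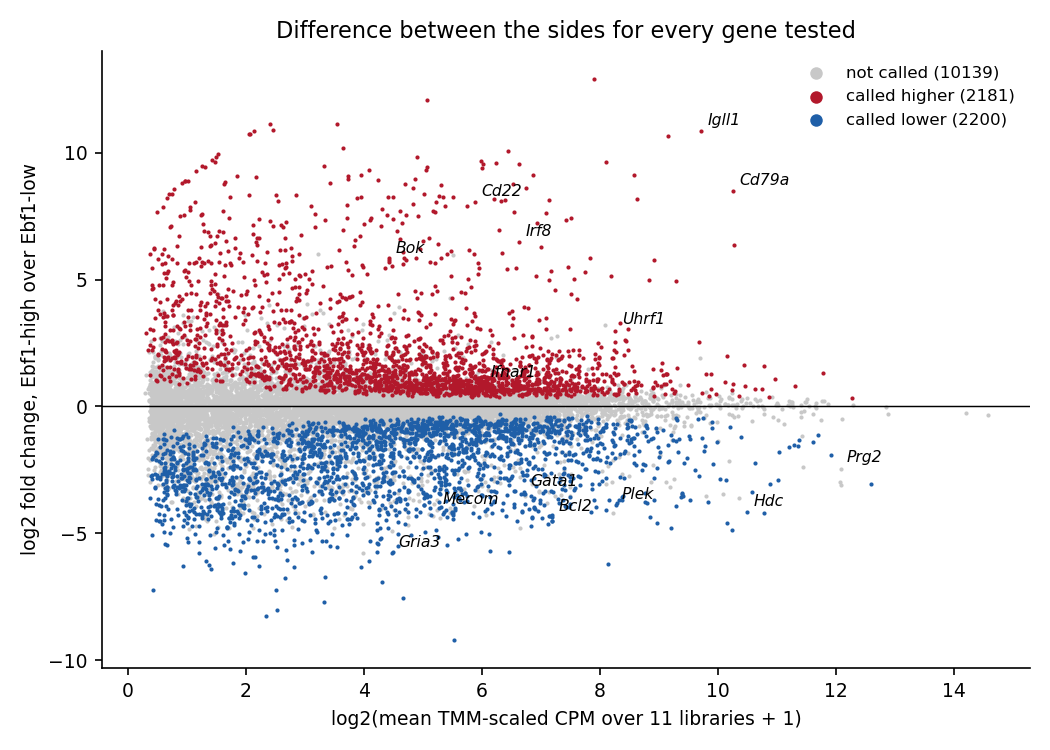
Log2 fold change of Ebf1-high over Ebf1-low (vertical axis) against log2 of the mean TMM-scaled CPM over the 11 libraries plus 1 (horizontal axis) for the 14520 genes tested, each point a gene. Red points are the 2181 genes called higher and blue points the 2200 called lower. Pre-B-cell genes such as Igll1 and Cd79a reach the largest positive folds, and Gria3, Hdc, Bcl2 and Plek lie among the negative ones.

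Beyond Ebf1, 9 of 12 B-lineage transcription factors tested were called higher (75%, against 15.0% of all genes tested) and none lower. The median log2 fold change of the 12 was 4.60 against -0.023 over all genes tested. The 9 were Pax5, Spib, Id3, Pou2af1, Irf4, Lef1, Bach2, Tcf3 and Foxo1. In 9 of the 12 every Ebf1-high library lay above every Ebf1-low one, which held for 12.6% of all genes tested. Pax5, which holds cells in the B lineage, was at 175, 187, 205, 107 and 149 CPM in the Ebf1-high libraries and 0 to 1.08 with a median of 0.0796 CPM on the Ebf1-low side. Spib, an Ets factor of B cells, was at 321, 175, 338, 171 and 267 CPM against 0 to 3.16 with a median of 0.0952 CPM. For Pou2af1, the coactivator that works with Oct factors on immunoglobulin promoters, the levels were 468, 327, 448, 351 and 273 CPM and 0.195 to 5.31 with a median of 1.603 CPM. In all 3 genes every Ebf1-high library stood far above the highest Ebf1-low one. Id3, an inhibitor of E proteins, had 436, 266, 474, 539.7 and 261 CPM on the Ebf1-high side and 0.0487 to 11.8 with a median of 1.01 CPM on the other. Tcf3, which encodes those E proteins, had 172, 68.7, 101, 103 and 90.5 CPM against 13.3 to 28.6 with a median of 15.9 CPM, a log2 fold change of 2.58 ± 0.28 (SE), so inhibitor and target were both higher. The other 3 members were not called. Ikzf1, a factor of all lymphoid progenitors, was at 152 to 194 CPM and 83.3 to 228 CPM. Bcl11a was at 106 to 159 CPM and 0.633 to 89.4 CPM, without overlap, and Ikzf3 at 3.89 to 14.1 CPM and 0.1095 to 69.7 CPM.

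The genes of the pre-B-cell receptor and its signalling moved furthest as a list, with a median log2 fold change of 7.21. Of 16 tested members 12 were called higher (75%, against 15.0% of all genes tested) and none lower. Igll1 (lambda 5, on chr16:16860671-16863985, minus strand), a chain of the surrogate light chain, had 2847, 1709, 1688, 1066 and 1929 CPM in the Ebf1-high libraries. On the Ebf1-low side it was at 0 to 15.6 with a median of 0.0310 CPM, with 3 libraries at 0. Its partner Vpreb3 had 1062, 1365, 1425, 957 and 1478 CPM against 0 to 11.5 with a median of 0.0568 CPM. Vpreb2 was more uneven, at 14.4, 375, 52.4, 87.8 and 419.7 CPM against 0 to 1.08 with a median of 0 CPM, so that Ifnar1 +/- library 3 held far less of it than Ifnar1 -/- library 5. Vpreb2 and Vpreb1 are near-identical copies, and the split of reads between them is uncertain. Cd79a (chr7:24897381-24902197, plus strand), the signalling chain of the receptor, had 2976, 2615, 3100.3, 2012 and 2712 CPM against 0.403 to 33.8 with a median of 2.04 CPM. Ighm, the mu heavy chain constant region, had 2090.4, 2504, 3729, 2962 and 2208 CPM against 3.65 to 78.6 with a median of 26.5 CPM, with a log2 fold change of 6.36 ± 0.72. Blnk, the adaptor below Syk, had 181, 369.7, 236, 119 and 257 CPM and 0 to 3.87 with a median of 0.287 CPM. Cd22, an inhibitory lectin of B cells, showed the steadiest difference, at 137, 151, 166, 79.5 and 99.5 CPM against 0.292 to 1.11 with a median of 0.325 CPM and a log2 fold change of 8.06 ± 0.38. The 4 members not called were the kinases Lyn, Btk and Syk and the receptor Cd72, which were also expressed on the Ebf1-low side. Without Ifnar1 -/- library 2 Syk was called, with a log2 fold change of 1.19 against 0.80 ± 0.40 with it. Btk, for example, had 162 to 176 CPM on the Ebf1-high side and 132 to 291 CPM on the Ebf1-low side. The list's last member, Blk, did not pass the filter on low values with all 11 libraries. Without Ifnar1 -/- library 2 Blk was tested and called higher, with a log2 fold change of 8.26. Leaving out any Ifnar1 -/- library eases that filter, as stated above.

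**Figure D2:**
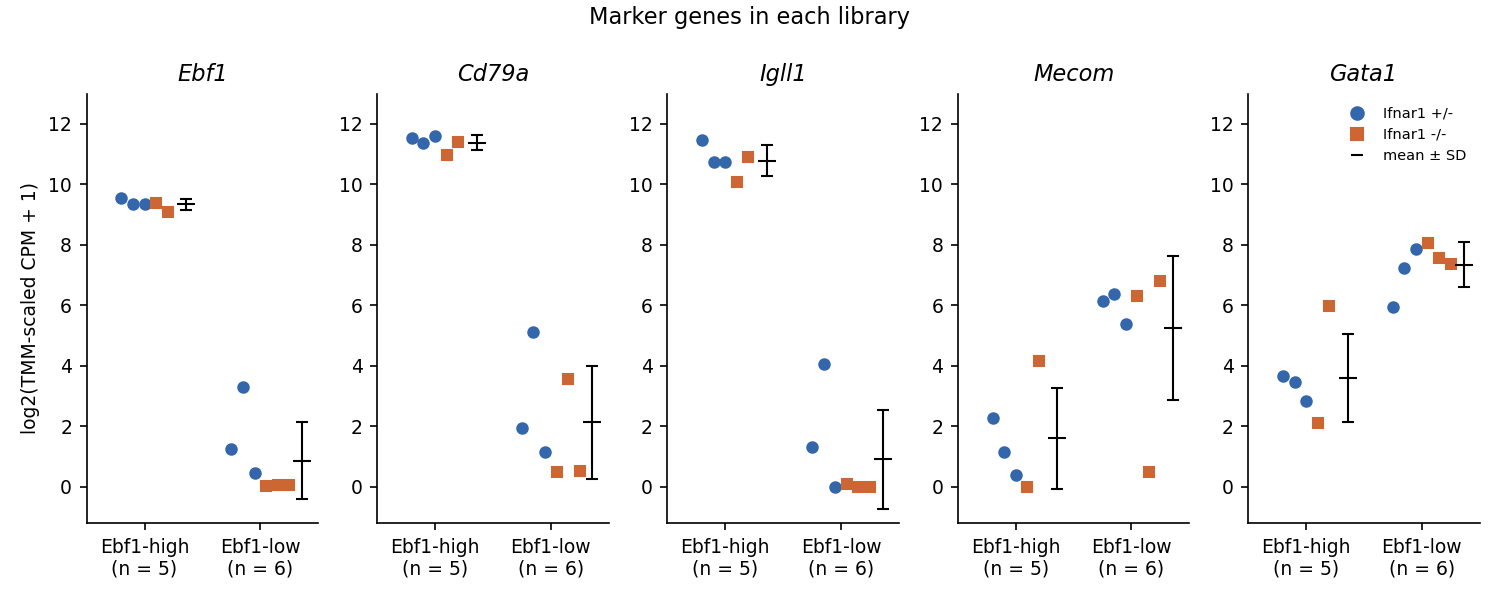
Level of the marker genes Ebf1, Cd79a, Igll1, Mecom and Gata1 in each library as log2(TMM-scaled CPM + 1), by side, with Ifnar1 +/- libraries as circles and Ifnar1 -/- libraries as squares. Black bars give the mean and SD of each side. The sides do not overlap in Ebf1, Cd79a and Igll1, whereas 1 Ebf1-low library lies near 0 for Mecom and the highest Ebf1-high library reaches the lowest Ebf1-low library for Gata1.

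Promoter sequence was examined for the core that Ebf1 is known to bind, searched as TCCCNNGGG on both strands in RefSeq windows of GRCm38.p6 from 250 bases before to 50 after a gene's start. A window was found for 23 of 29 members of the B-lineage factor and pre-B-cell receptor lists, and 2 of these, Cd22 and Foxo1, held the core. It occurred in 6.56% of all 32851 windows, in 7.91% of those of tested genes, in 9.35% of those of genes called higher and in 8.47% of those of genes called lower. The letters are therefore also present where genes were lower, as at Gata1. The 100 bases before the RefSeq start are shown for the marker genes Igll1 and Cd79a, for Cd22 as the member with the core and the steadiest difference, and for Gata1 as a marker of the opposite side. For Cd79a and Gata1 these bases lie inside the gene spans given in this report, which are from GENCODE and begin further upstream. Capitals mark the core, which in Cd22 and Gata1 reads on both strands over the same 10 bases.
Igll1 (chr16:16863986-16864085, minus strand): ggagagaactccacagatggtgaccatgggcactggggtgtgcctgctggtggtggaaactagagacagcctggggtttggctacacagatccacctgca
Cd79a (chr7:24897397-24897496, plus strand): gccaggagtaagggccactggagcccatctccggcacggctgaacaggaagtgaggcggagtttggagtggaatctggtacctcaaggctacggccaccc
Cd22 (chr7:30879029-30879128, minus strand): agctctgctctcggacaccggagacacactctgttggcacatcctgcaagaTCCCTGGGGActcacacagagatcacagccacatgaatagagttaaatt
Gata1 (chrX:7967911-7968010, minus strand): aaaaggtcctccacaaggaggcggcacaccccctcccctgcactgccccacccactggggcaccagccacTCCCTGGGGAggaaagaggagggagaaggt
A match describes these letters only, and the windows without one say nothing about binding elsewhere at the gene.

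Genes of V(D)J recombination and of later B-cell stages accompanied this programme in part. Of 9 recombination genes tested, 5 were called higher (Rag1, Rag2, Lig4, Xrcc6 and Nhej1) and none lower. That share was 55.6%, against 15.0% of all genes tested. Dntt, also of this list, did not pass the filter on low values with all 11 libraries. Without Ifnar1 -/- library 2 Dntt was called higher, with a log2 fold change of 6.60. Leaving out any Ifnar1 -/- library eases the filter, and the list's count of higher calls was 6 without Ifnar1 -/- library 1 or 2. Rag1, the catalytic subunit of the recombinase, was at 1.31, 10.2, 8.63, 19.1 and 10.3 CPM against 0 to 0.437 with a median of 0 CPM, and Rag2 at 6.43, 38.2, 36.1, 27.8 and 16.7 CPM against 0 to 1.04 with a median of 0.0402 CPM. Lig4, which joins the cut ends, had 69.4, 16.6, 28.2, 27.7 and 27.2 CPM against 1.66 to 3.598 with a median of 2.901 CPM. Its log2 fold change was 3.54 ± 0.38. Among mature B-cell and plasma-cell genes 6 of 9 were called higher (Ms4a1, Ighd, Sdc1, Cxcr5, Cd40 and Cr2) and none lower. That share was 66.7%, against 15.0% of all genes tested. Ms4a1 (CD20) had 4.72, 65.5, 127, 2.17 and 153 CPM against 0 to 0.402 with a median of 0.0829 CPM, and Ighd, the delta heavy chain, 26.4, 17.9, 80.7, 25.7 and 29.3 CPM against 0 to 0.683 with a median of 0.128 CPM. The summed level of the 11 genes of this list was 153 to 489 CPM on the Ebf1-high side and 125 to 304 CPM on the Ebf1-low side. Cd40 and Cr2 stayed at or below 2.45 CPM in every library. Xbp1, a plasma-cell factor that other cells also use, was not called, at 56.1 to 186 CPM on the Ebf1-high side and 113 to 296 CPM on the other. In the lymphoid progenitor list Bst1 was called higher and Il2rg, the common gamma chain, lower. These shares, 11.1% each, are below the 15.0% and 15.2% of all genes tested, so the list as a whole shows no result. Il2rg was at 143, 224, 151, 175 and 286 CPM against 94.97 to 1453 with a median of 828 CPM. The other 7 of 9 members were not called. Il7r, the receptor on which normal mouse pre-B cells depend, was among those not called, at 66.9 to 143 CPM against 3.17 to 193 CPM.

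In the list for T and NK cells, 9 of 20 genes did not pass the filter on low values, Cd3e, Cd3d and Cd3g among them. Of the other 11, Lck and Cd4 were called higher and Nkg7 lower. These shares, 18.2% and 9.09%, are near or below the 15.0% and 15.2% of all genes tested, so the list shows no result. Lck, a Src-family kinase best known from T cells, had 455, 171, 118, 262 and 96.3 CPM against 0.731 to 69.9 with a median of 7.92 CPM. Cd4 had at most 9.39 CPM in any library. Nkg7, a granule protein of cytotoxic cells, had 22.1, 12.1, 5.98, 6.03 and 133 CPM against 103 to 642 with a median of 172 CPM. The summed level of the list's 20 genes was 394 to 1011 CPM on the Ebf1-high side and 272 to 6580.2 CPM on the Ebf1-low side, where Gzmb, granzyme B, alone had 6229.8, 1129.6, 4857, 189, 13.98 and 1289 CPM; the part of T or NK cells in these differences was not tested.

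Of the 12 largest separated differences upward by the naming rule, 10 are described here, 5 of them in genes of the B lineage (Igll1, Vpreb3, Vpreb2, Pax5 and Ms4a1) and 5 in others: Enpep, Galnt14, Dlg2, Gfra1 and Tmem108. Enpep encodes the glutamyl aminopeptidase that is also the mouse pre-B surface antigen BP-1. It had 717, 647, 721, 0.686 and 524 CPM against at most 0.146 CPM on the Ebf1-low side, so that Ifnar1 -/- library 3 lacked nearly all of it. Dlg2, a scaffold of synapses, had 165, 93.7, 228, 84.3 and 118 CPM against 0 to 0.7398 with a median of 0.0444 CPM. Gfra1, a co-receptor of glial-derived neurotrophic factor, had 247, 328, 266, 60.6 and 176 CPM against 0 to 2.39 with a median of 0 CPM. Galnt14, a glycosyltransferase, and Tmem108 were at 30.8 to 90.1 CPM and 82.1 to 176 CPM on the Ebf1-high side, and below 1 CPM in every Ebf1-low library. For these genes the fitted fold depends on the few counts of the Ebf1-low side, so the levels are the safer description.

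In the lists for stem, erythroid, megakaryocytic and mast cells no member was called higher on the Ebf1-high side, and the share called lower differed between the lists. The median log2 fold change of the 16 stem-cell members tested was -2.29, and 3 were called lower on the Ebf1-high side (Gata2, Tal1 and Ly6a), or 18.8% against 15.2% of all genes tested. DESeq2 and limma voom each called 9 of them lower. The count was 8 without Ifnar1 -/- library 2 and 1 without Ifnar1 +/- library 3, 4 or 5. Mecom (chr3:29951296-30548008, minus strand), a regulator of stem cells and a leukaemia oncogene, had 3.89, 1.24, 0.319, 0 and 16.7 CPM in the Ebf1-high libraries and 69.1, 81.6, 40.97, 77.6, 0.3896 and 111 CPM in the Ebf1-low ones. Ifnar1 -/- library 2 was the only Ebf1-low library below 1 CPM of Mecom, and the gene was not called, with a log2 fold change of -4.10 ± 1.50. Leaving that library out gave a log2 fold change of -4.47, and a call. Gata2 had 12.9, 12.7, 5.47, 5.13 and 73.8 CPM against 497, 357, 242, 242, 86.7 and 335 CPM, with a log2 fold change of -3.91 ± 0.85 and no overlap. Ly6a, the Sca-1 antigen, had 6.65, 41.4, 9.81, 7.69 and 141 CPM against 2110.4, 1279, 859, 1375, 1.997 and 689 CPM, again with Ifnar1 -/- library 2 at the bottom. Flt3, whose duplication all groups carry, was not called, at 73.1 to 121 CPM and 91.3 to 234 CPM. Neither was Kit, at 6.82 to 93.4 CPM and 19.2 to 597 CPM, with a log2 fold change of -2.30 ± 0.88. Without Ifnar1 -/- library 2 it was -2.49, and Kit was called lower.

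Erythroid genes were called lower on the Ebf1-high side in 11 of 22 tested members (50%, against 15.2% of all genes tested) and higher in none. Their median log2 fold change was -3.07. The count was 17 without Ifnar1 -/- library 2 and 4 without Ifnar1 +/- library 4 or 5. Gata1 (chrX:7959260-7978071, minus strand), the master factor of erythroid cells and platelets, had 11.5, 9.98, 6.204, 3.28 and 61.6 CPM against 60.8, 151, 231, 264, 188 and 164 CPM, and its log2 fold change was -3.39 ± 0.70. Ifnar1 -/- library 5 held most of what the Ebf1-high side had of it, and its level just exceeded the lowest Ebf1-low library. Rhag, an ammonium channel of the red cell membrane, had 3.27, 0.474, 1.57, 1.52 and 2.74 CPM against 20.3, 15.5, 375, 85.9, 5.94 and 7.56 CPM. Sptb, the erythrocyte spectrin beta chain, had 0.799, 0.109, 0.5395, 0.397 and 0.549 CPM against 6.46, 2.69, 65.96, 7.15, 2.29 and 1.35 CPM. Rhag and Sptb both peaked in Ifnar1 +/- library 6. The beta-globin Hbb-bs showed the same peak, at 325, 898, 1149, 1176 and 691 CPM against 5184, 2266, 49404, 4257, 1682 and 1023 CPM. The summed level of the 22 erythroid genes in the table was 1283 to 4091 CPM on the Ebf1-high side and 3888 to 141685 CPM on the Ebf1-low side, so globin RNA was present on both sides, and its part in the difference was not tested.

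Megakaryocyte and platelet genes were called lower in 9 of 17 tested members (52.9%, against 15.2% of all genes tested) and higher in none. Their median log2 fold change was -2.91. The count was 15 without Ifnar1 -/- library 2 and 5 without Ifnar1 +/- library 1, 3 or 5 or Ifnar1 -/- library 3. Plek (pleckstrin), a substrate of protein kinase C in platelets, had 20.2, 33.96, 23.4, 24.04 and 83.6 CPM against 546, 526, 614, 332, 660.3 and 523 CPM, a log2 fold change of -3.89 ± 0.41 with no overlap. Itgb3 and Itga2b together form the platelet fibrinogen receptor. Itgb3 had 4.21, 5.102, 5.42, 3.18 and 25.3 CPM against 148, 135, 47.7, 304, 32.4 and 174 CPM, and Itga2b 19.97, 57.98, 12.2, 8.66 and 95.9 CPM against 2484, 213, 445, 259.7, 319.7 and 1182 CPM. Ifnar1 +/- library 1 was highest for Itga2b and Ifnar1 -/- library 1 for Itgb3. Nfe2, a factor of platelet release, had 11.5, 6.05, 8.63, 10.7 and 45.3 CPM against 144, 126, 209, 155, 443 and 115 CPM.

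In the mast-cell and basophil list 4 of 11 members were called lower (Hdc, Mitf, Il1rl1 and Fcer1g) and none higher. That share was 36.4%, against 15.2% of all genes tested, and the median log2 fold change was -2.63. DESeq2 called 8 lower, and leaving out a library gave 2 (without Ifnar1 +/- library 5 or Ifnar1 -/- library 4) to 6. Hdc, which makes histamine, had 76.9, 119, 82.5, 92.6 and 351 CPM against 4657, 3725, 1441, 897, 1466 and 2937 CPM, so that even the lowest Ebf1-low library had more than the highest Ebf1-high one. Fcer1g, the common Fc receptor gamma chain, had 101, 124, 97.7, 148 and 123 CPM against 771, 501, 281, 399, 1176 and 561 CPM and a log2 fold change of -2.32 ± 0.33. Cpa3, the mast-cell carboxypeptidase, overlapped between the sides, with 8.35, 553, 58.3, 28.6 and 102 CPM against 3739, 363, 468, 122, 32.1 and 1216 CPM, and was not called. Eosinophil genes gave 1 lower call of 10, Siglecf (10%, below the 15.2% of all genes tested), although their median was -2.71. Prg2, the eosinophil major basic protein, had 3.85, 182, 733, 121 and 221 CPM on the Ebf1-high side and 82.99, 1173, 0.324, 64.2, 45019 and 0.146 CPM on the Ebf1-low side, nearly all of it in Ifnar1 -/- library 2. Its log2 fold change was -2.45 ± 3.08 with that library and 0.65 without it.

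Late neutrophil genes gave no call among 14 tested. Ngp, a neutrophil granule protein, was at 90.1, 525, 557, 1632 and 342 CPM on the Ebf1-high side and 241, 2163, 2099.7, 121, 22701 and 0.146 CPM on the Ebf1-low side, and its log2 fold change of -2.38 ± 1.71 became 0.018 without Ifnar1 -/- library 2. Among monocyte and macrophage genes, 6 of 18 were called lower and 1 higher (33.3% and 5.56%, against 15.2% and 15.0% of all genes tested). Only 2 were called lower without Ifnar1 +/- library 3. Cd68, a lysosomal protein of macrophages, had 5.45, 15.4, 6.87, 5.52 and 15.5 CPM against 431, 39.4, 176, 14.5, 42.9 and 70.2 CPM. Ccr2, the chemokine receptor of inflammatory monocytes, had 4.43, 4.52, 1.74, 4.296 and 3.62 CPM against 97.5, 14.1, 12.03, 9.32, 8.82 and 32.5 CPM. The member called against the rest was Tlr4, the endotoxin receptor, with 6.68, 19.6, 14.7, 7.47 and 8.102 CPM against 0.183 to 5.96 with a median of 0.388 CPM. Of 8 myeloid transcription factors tested, Cebpb, Id2 and Gfi1b were called lower and Irf8 higher. The shares were 37.5% and 12.5%, against 15.2% and 15.0% of all genes tested. Irf8, which acts in B cells as well as in monocytes and dendritic cells, had 167, 263, 265, 156 and 212 CPM against 0.657 to 7.36 with a median of 1.56 CPM, a log2 fold change of 6.47 ± 0.53. Id2, an inhibitor of E proteins like Id3, went the other way, at 198, 110.5, 123, 93.8 and 79.95 CPM against 1648, 378, 687, 298, 404 and 592 CPM and a log2 fold change of -2.50 ± 0.38. Of 7 azurophil granule genes Cst7 was called lower, and of 5 dendritic-cell genes tested Zbtb46 was. These shares, 14.3% and 20%, are near the 15.2% of all genes tested. None of the 6 endothelial and stromal genes tested was called.

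**Figure D3:**
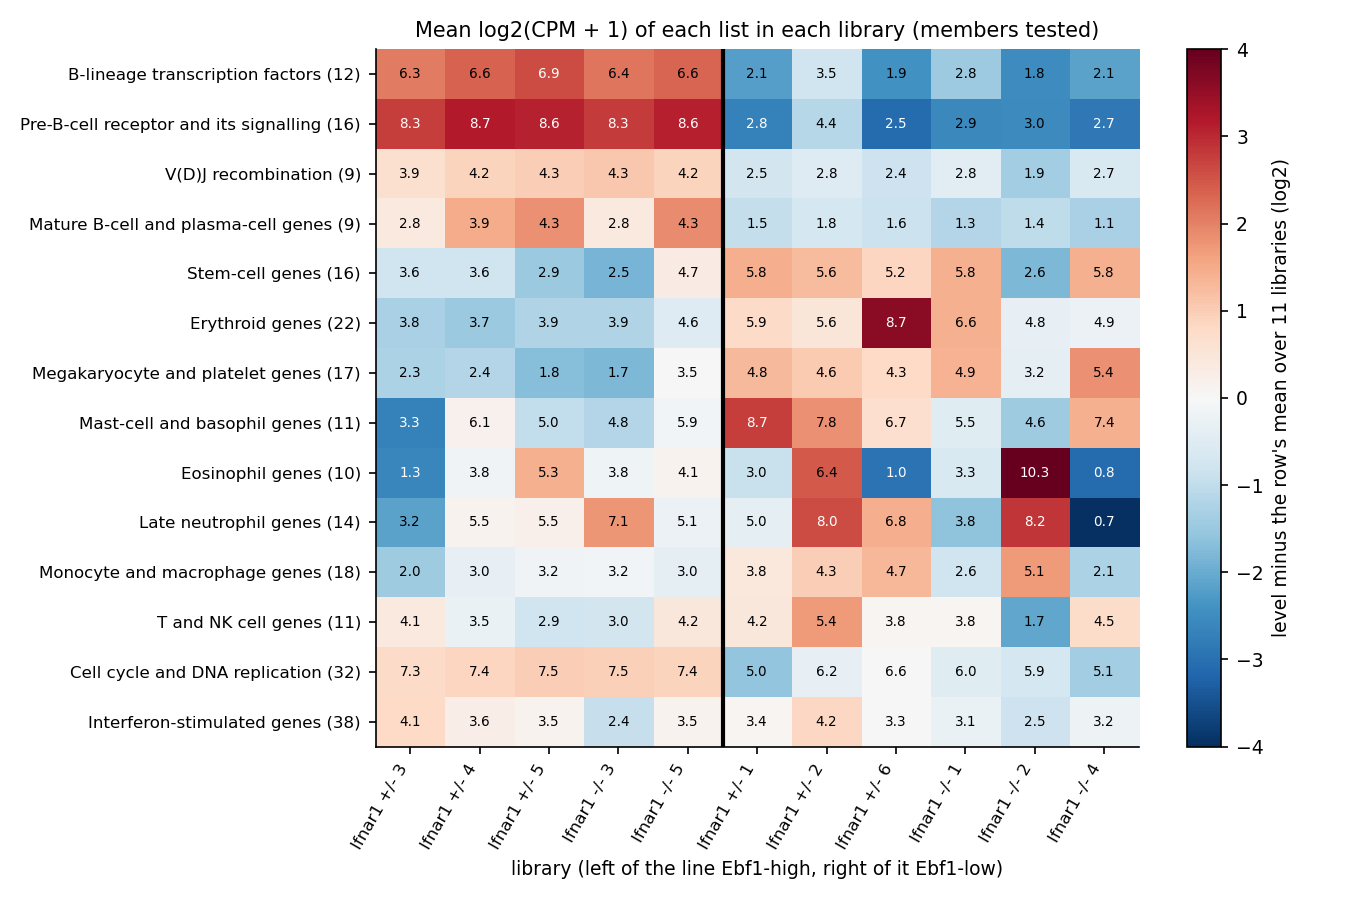
Mean log2(CPM + 1) over the tested members of 14 gene lists (rows) in each of the 11 libraries (columns), with the value printed in each cell. Colour gives the difference from the row's mean. The 5 Ebf1-high libraries, left of the line, are alike in the B-lineage rows and lie between 7.32 and 7.54 for cell cycle genes, whereas the 6 Ebf1-low libraries differ among themselves, with the erythroid row highest in Ifnar1 +/- library 6 at 8.73 and the megakaryocyte row lowest in Ifnar1 -/- library 2 at 3.17.

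The split was not complete in either direction. Ifnar1 +/- library 2, the Ebf1-low library nearest the threshold, held small amounts of B-lineage RNA: its levels of 7 genes (Ebf1, Cd79a, Igll1, Vpreb1, Vpreb3, Pax5 and Blnk) were between 0.654% and 1.66% of the Ebf1-high mean. Its shares were higher for Rag1 (4.41%), Rag2 (4.16%) and Tcf3 (26.7%). Conversely Ifnar1 -/- library 5, the Ebf1-high library nearest the threshold, held between 13.2% and 35.04% of the Ebf1-low median for 9 genes (Mecom, Gata1, Gata2, Itga2b, Nfe2, Ly6a, Hdc, Havcr2 and Plek). These 19 genes were chosen after their values were seen, so the ranges describe the libraries and carry no test.

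The 12 largest separated differences downward were Aspa, Gria3, Arg1, Slc7a11, Rhag, Cd59a, Add2, Mir22hg, Rgs1, Spns2, Emilin2 and Slc41a3. Gria3, a subunit of AMPA-type glutamate receptors, had 0.508, 0.328, 0.0736, 1.55 and 1.74 CPM against 92.7, 17.3, 18.4, 29.2, 22.2 and 51.4 CPM, a log2 fold change of -5.78 ± 0.87. Mir22hg, the host transcript of miR-22, had 1.16, 0.765, 1.18, 0.866 and 2.098 CPM against 84.7, 21.5, 58.9, 7.71, 52.5 and 22.3 CPM, and its log2 fold change was -5.03 ± 0.67. Slc41a3, a magnesium transporter, had 7.66, 13.8, 6.16, 7.51 and 21.8 CPM against 498, 102, 251, 93.7, 269 and 329 CPM and a log2 fold change of -4.50 ± 0.59. Without Ifnar1 -/- library 2 these 3 log2 fold changes were -6.05, -4.77 and -4.50 for Gria3, Mir22hg and Slc41a3. Others moved more when a library was left out. Aspa, which hydrolyses N-acetylaspartate, had 92.1, 4.04, 8.07, 6.35, 387 and 1.93 CPM on the Ebf1-low side and at most 0.361 CPM on the Ebf1-high side, and its log2 fold change was -9.20 ± 1.86 with Ifnar1 -/- library 2 and -7.01 without. Slc7a11, the cystine transporter, had 6.75, 16.6, 4.86, 2.38, 415 and 6.02 CPM against at most 0.947 CPM, and its log2 fold change moved from -5.46 ± 1.62 to -3.47 on leaving that library out. Add2 and Arg1 were highest in Ifnar1 +/- library 6, at 523 CPM and 175 CPM.

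**Figure D4:**
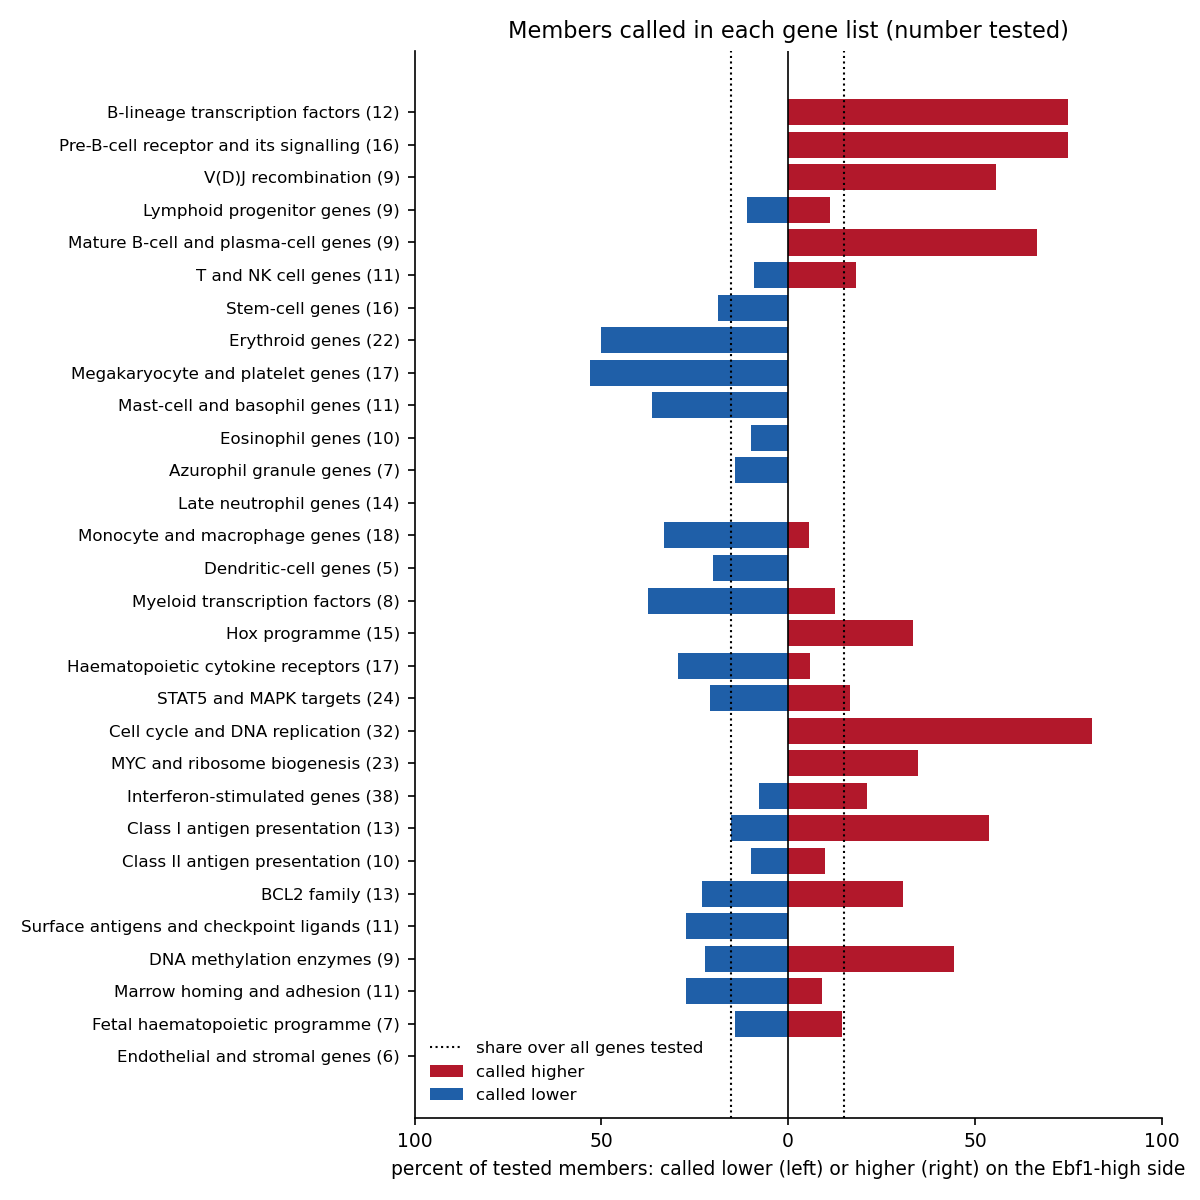
Percent of the tested members of each of 30 gene lists that were called lower (blue, to the left) or higher (red, to the right) on the Ebf1-high side, with the number tested in brackets. Dotted lines mark the shares over all 14520 genes tested, 15.2% lower and 15.0% higher. B-lineage, pre-B-cell receptor and cell cycle lists extend furthest to the right, and megakaryocyte and erythroid lists furthest to the left.

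Genes of the cell cycle and DNA replication were called higher on the Ebf1-high side in 26 of 32 members and lower in none. The share called higher was 81.25%, against 15.0% of all genes tested, and the median log2 fold change was 1.56. In 26 of the 32 every Ebf1-high library lay above every Ebf1-low library, which held for 12.6% of all genes tested. Bub1b, a kinase of the spindle checkpoint, had 159, 201, 282, 200.3 and 229 CPM against 12.2, 38.9, 54.3, 41.5, 28.3 and 17.9 CPM, a log2 fold change of 2.73 ± 0.37. Rrm2, the regulated subunit of ribonucleotide reductase, had 487, 622, 844, 474 and 741 CPM against 50.99, 105, 179.9, 89.04, 171 and 37.97 CPM. Mcm7, part of the replicative helicase, had 497, 586, 637, 646 and 513 CPM against 70.9, 172, 210.3, 196, 96.1 and 103 CPM, and Tyms, thymidylate synthase, 169, 346, 342, 207 and 284 CPM against 60.7, 82.2, 98.6, 80.1, 40.4 and 63.7 CPM. In all 4 genes the lowest Ebf1-low values belonged to Ifnar1 +/- library 1, Ifnar1 -/- library 2 or Ifnar1 -/- library 4. The 6 members not called included the D-type cyclin Ccnd2 and its kinase Cdk6, the most abundant of the list. Cdk6 was at 363 to 1017 CPM and 290.4 to 918 CPM, and Ccnd2 at 208 to 733 CPM and 16.3 to 912 CPM with Ifnar1 -/- library 2 lowest. Genes of MYC and ribosome biogenesis were called higher in 8 of 23 (34.8%, against 15.0% of all genes tested) and lower in none. Their median was 0.55. Leaving out Ifnar1 +/- library 1, 4 or 5 or Ifnar1 -/- library 3 or 4 brought the 8 down to 2. Bop1, a factor of large-subunit assembly, had 134, 239, 248, 244 and 206 CPM against 109.7, 103, 99.8, 118, 66.4 and 107 CPM, and Npm1, nucleophosmin, 1767, 1779.9, 1881, 2265 and 1538 CPM against 855, 1231, 1516, 1193, 765 and 787 CPM. Ldha, lactate dehydrogenase and the list's most abundant metabolic gene, was not called, with 1209 to 2072 CPM and 1851 to 3850.4 CPM.

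In the BCL2 family, which decides between survival and mitochondrial apoptosis, genes were called in both directions. Of 13 tested members 4 were called higher (Bok, Bmf, Bcl2l11 and Bid) and 3 lower (Bcl2, Bbc3 and Pmaip1). These shares were 30.8% and 23.1%, against 15.0% and 15.2% of all genes tested. The list's median log2 fold change was -0.22. The higher count was 2 when any 1 Ifnar1 +/- library was left out. Bcl2, the founding survival protein, had 6.83, 16.7, 11.9, 3.43 and 22.9 CPM in the Ebf1-high libraries and 699.8, 194, 57.05, 148, 11.6 and 427 CPM in the Ebf1-low ones. Only Ifnar1 -/- library 2 among the latter lay within the Ebf1-high range, and the log2 fold change was -4.36 ± 1.01. Bok, a BAX-like effector, had 41.1, 65.6, 40.8, 35.1 and 38.4 CPM against 0.146 to 2.88 with a median of 0.413 CPM and a log2 fold change of 5.79 ± 0.64. Bmf, a BH3-only protein that binds BCL2, had 84.6, 28.7, 68.00, 23.1 and 53.97 CPM against 0.438 to 10.4 with a median of 3.297 CPM. The BH3-only genes did not move as one, since Bbc3 (PUMA) had 0.726, 1.09, 1.03, 0.217 and 0.7101 CPM against 4.095, 3.46, 5.06, 2.91, 4.43 and 3.14 CPM and Pmaip1 (NOXA) 11.8, 9.15, 10.7, 14.04 and 9.75 CPM against 59.1, 47.5, 50.8, 9.04, 109 and 14.6 CPM. The survival gene Bcl2l1, which encodes BCL-XL, was the most abundant member besides the effector Bax. It was not called, at 588, 346, 381, 141 and 323 CPM against 346, 208, 313, 171, 222 and 125 CPM, and the sides overlapped. Mcl1, another survival gene, was not called either, at 22.3 to 29.99 CPM against 26.7 to 103 CPM. Bcl2l11, Bid and Mcl1 were named after their values were seen.

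Among haematopoietic cytokine receptors 5 of 17 tested were called lower (Csf2rb, Csf2rb2, Il1rl1, Ifngr1 and Ifnar2) and 1 higher (Ifnar1). These shares were 29.4% and 5.88%, against 15.2% and 15.0% of all genes tested. The lower count was 3 to 7 when 1 library was left out. Il1rl1 and Ifnar2 lost the call in 8 and 7 of the 11 such fits. Csf2rb, the common beta chain of the receptors for IL-3, IL-5 and GM-CSF, had 151, 147, 163, 122 and 166 CPM against 931, 440.1, 1199, 299, 1130.2 and 724 CPM, with a log2 fold change of -2.41 ± 0.36. Csf2rb2, its IL-3-specific paralog, had 17.4, 38.4, 15.3, 13.6 and 22.2 CPM against 350.2, 131, 328, 58.5, 194 and 269 CPM and a log2 fold change of -3.41 ± 0.48. The authors' counting could split reads between these near-identical paralogs, so their separate values are uncertain. Of 24 targets of STAT5 and MAPK signalling, the routes below active Flt3, 5 were called lower (Pim2, Socs1, Osm, Cish and Egr1) and 4 higher (Etv5, Dusp6, Dusp7 and Ccnd1). These shares, 20.8% and 16.7%, are near the 15.2% and 15.0% of all genes tested, so the list as a whole shows no result. Cish, a feedback inhibitor of STAT5, had 104, 107, 85.9, 86.5 and 177 CPM against 745, 523, 510.3, 273, 299 and 436 CPM, a log2 fold change of -2.02 ± 0.31. Pim2, a survival kinase, had 23.8, 29.1, 26.3, 28.1 and 55.2 CPM against 598, 297, 115, 197, 70.03 and 398 CPM. Etv5, an Ets factor, had 83.2, 97.3, 116, 87.9 and 82.8 CPM against 46.9, 74.6, 38.8, 25.4, 43.3 and 36.5 CPM, and Dusp7, a phosphatase of ERK, 19.2, 48.1, 37.8, 25.95 and 43.8 CPM against 9.32, 11.7, 5.35, 8.15, 9.302 and 13.4 CPM. Egr1, a MAPK target like Etv5 and Dusp7, was lower at 11.9, 11.6, 20.1, 7.797 and 10.4 CPM against 26.7, 72.7, 128, 5.98, 23.96 and 18.4 CPM. Egr1 was named after its values were seen.

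In the Hox programme, which the NUP98-HOXD13 fusion is known to act on, 5 of 15 tested genes were called higher and none lower. That share was 33.3%, against 15.0% of all genes tested. All 5 belonged to the HoxB cluster (Hoxb3, Hoxb5, Hoxb6, Hoxb7 and Hoxb8). Hoxb7 had 12.1, 29.01, 16.4, 24.3 and 22.8 CPM against 0.0803, 0.404, 0, 2.35, 0 and 1.86 CPM. Hoxb5 had 11.9, 4.37, 9.49, 8.95 and 4.55 CPM against 0.0402, 0.0673, 0, 2.48, 0 and 1.497 CPM, and Hoxb8 3.52, 4.77, 5.05, 5.09 and 3.71 CPM against 0, 0.135, 0, 0.6504, 0 and 0.256 CPM. In each of the 3 the highest Ebf1-low values were those of Ifnar1 -/- libraries 1 and 4. Hoxa7, the most abundant member, was not called, at 96.3, 162, 279, 227 and 159 CPM against 115, 64.4, 86.4, 70.6, 185 and 109 CPM. Hoxa9, the gene most associated with NUP98 fusions, was not called either, at 85.6, 2.33, 19.3, 38.4 and 43.7 CPM against 67.3, 81.1, 45.5, 95.2, 51.3 and 72.03 CPM. Hoxa10, also not called, was at 32.2, 0.437, 1.18, 0.866 and 6.97 CPM against 10.8, 24.6, 31.3, 32.2, 2.87 and 16.7 CPM. Among the Ebf1-high libraries both Hoxa9 and Hoxa10 were lowest in Ifnar1 +/- library 4 and highest in Ifnar1 +/- library 3. Hoxa9 and Hoxa10 were named after their values were seen.

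**Figure D5:**
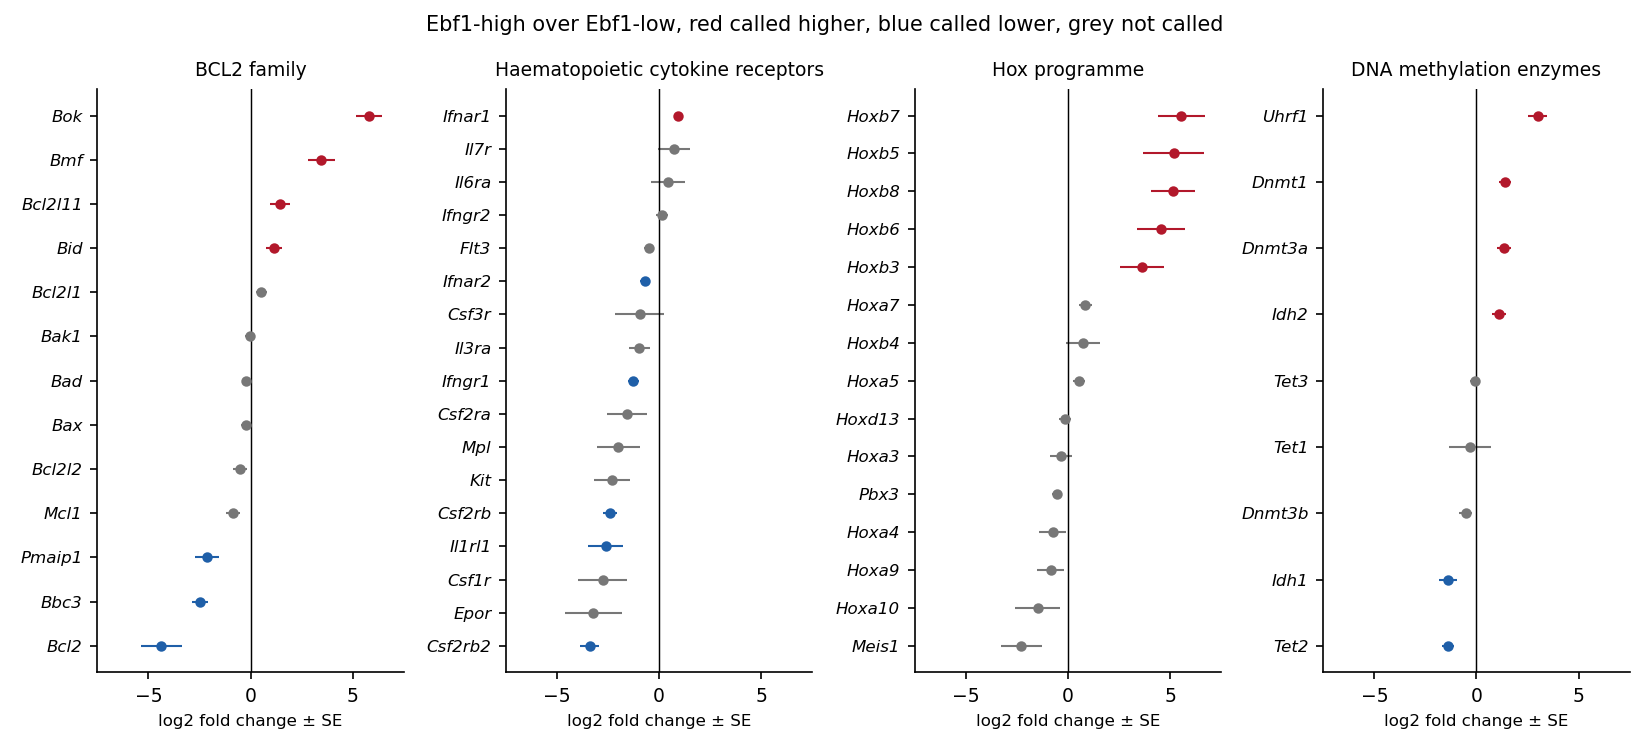
Log2 fold change of Ebf1-high over Ebf1-low with its SE (bars) for the tested members of the BCL2 family, haematopoietic cytokine receptors, the Hox programme and DNA methylation enzymes, each list sorted. Red points were called higher, blue points lower and grey points were not called. Bok and Bcl2 lie at opposite ends of the first list, at 5.79 and -4.36, and the 5 red points of the third are HoxB genes.

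Of 9 DNA methylation enzymes tested, 4 were called higher (Uhrf1, Dnmt1, Dnmt3a and Idh2) and 2 lower (Tet2 and Idh1). The shares were 44.4% and 22.2%, against 15.0% and 15.2% of all genes tested. Uhrf1, which guides Dnmt1 to newly replicated DNA, had 672, 489, 548, 822 and 401 CPM against 18.6, 104, 133, 80.3, 74.4 and 33.6 CPM, a log2 fold change of 2.99 ± 0.47. Dnmt1 had 242, 252, 251, 303 and 232 CPM against 49.3, 151, 79.4, 156, 67.5 and 96.1 CPM, and the de novo enzyme Dnmt3a 82.1, 80.1, 105, 75.9 and 75.7 CPM against 19.4, 52.96, 15.2, 48.9, 32.05 and 31.4 CPM. Tet2, which oxidises methylcytosine, had 10.8, 10.8, 11.1, 7.797 and 8.295 CPM against 20.2, 22.97, 29.8, 14.96, 45.6 and 18.3 CPM. Dnmt1 and Uhrf1 are S-phase genes, and the cell cycle genes given above moved with them; their part in this difference was not tested.

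Surface antigens and adhesion genes were mostly lower where called. Havcr2 (TIM-3), a marker of leukaemic stem cells, had 5.96, 9.62, 2.87, 16.4 and 32.8 CPM against 565, 278, 156, 135, 4.43 and 343 CPM, with Ifnar1 -/- library 2 again at the level of the other side. Cd33 had 2.25, 8.75, 6.52, 12.5 and 8.17 CPM against 104, 87.1, 31.1, 19.1, 468 and 28.1 CPM, and Cd274 (PD-L1) 6.17, 8.67, 5.44, 3.72 and 9.75 CPM against 51.5, 27.9, 54.1, 25.4, 45.9 and 30.6 CPM, both without overlap. These 3 were the calls among 11 antigens tested, 27.3% lower against 15.2% of all genes tested. Cd47, the signal that restrains phagocytosis, was not called, at 332 to 541 CPM and 463 to 729.7 CPM. Of 11 homing and adhesion genes Itgb2, Itgb1 and Itga5 were called lower and Itga4 higher. These shares were 27.3% and 9.09%, against 15.2% and 15.0% of all genes tested. Itga4 and Itga5 each lost the call in 8 of the 11 fits that leave out 1 library. Itgb2, the beta chain of leukocyte integrins, had 143, 146, 182, 156 and 196 CPM against 404, 597, 338, 504, 3092 and 569 CPM. Itga4, whose product pairs with that of Itgb1 to form VLA-4, had 50.1, 52.5, 70.5, 91.5 and 52.8 CPM against 38.3, 45.03, 30.2, 42.9, 54.9 and 50.6 CPM, and Itgb1 itself 36.4, 34.3, 28.3, 24.04 and 40.1 CPM against 60.7, 105, 66.1, 169.7, 40.3 and 82.00 CPM. The 2 genes of that receptor therefore differed in opposite directions. In the fetal list, Hmga1 was called higher, with 1848, 991, 1479, 2429 and 725 CPM against 149.9, 269, 282, 326, 387 and 153 CPM, and Hmga2, lower, did not exceed 2.78 CPM in any library.

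Class I antigen presentation also split. Of 13 members 7 were called higher and 2 lower (53.8% and 15.4%, against 15.0% and 15.2% of all genes tested). Nlrc5, the transactivator of class I genes, had 33.1, 21.03, 27.3, 23.1 and 14.4 CPM against 0.195 to 6.25 with a median of 1.78 CPM and a log2 fold change of 3.46 ± 0.68. H2-T23, the non-classical molecule Qa-1, went the other way with 261, 206, 192, 155 and 318 CPM against 1674, 814, 1010.4, 806, 941 and 1146 CPM, and so did the peptide-loading gene Tapbp with 235, 265, 238, 178 and 301 CPM against 652, 614, 562, 536, 558 and 835 CPM. H2-D1 was not called, at 3384 to 3713 CPM and 2034 to 8581 CPM, nor was B2m, at 883 to 1261 CPM and 525 to 4167 CPM. H2 genes are near-identical copies of each other, so counts of single members are uncertain. Of 10 class II genes, H2-DMb2 was called higher and H2-DMb1 lower, 10% each way against 15.0% and 15.2% of all genes tested. H2-DMb2 had 16.7, 18.8, 22.8, 31.5 and 19.8 CPM against 0.259 to 2.76 with a median of 0.977 CPM. H2-DMb1 had 10.8, 7.69, 7.09, 8.09 and 19.6 CPM against 57.2, 41.8, 43.3, 59.2, 8.18 and 45.3 CPM. Such neighbouring paralogs can share reads, and this pair is uncertain for that reason.

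Interferon-stimulated genes were called in both directions: of 38 tested 8 were called higher and 3 lower, with a median log2 fold change of 0.13. These shares were 21.1% and 7.89%, against 15.0% and 15.2% of all genes tested. In 1 of the 38 every Ebf1-high library lay above every Ebf1-low library, and in 0 every one lay below. Over all genes tested these shares were 12.6% and 8.60%. Limma voom with quality weights turned this balance to 5 higher and 9 lower. Without Ifnar1 +/- library 1 or Ifnar1 -/- library 5 only 1 was called higher. Ifi27l2a had 29.9, 47.4, 50.2, 5.595 and 15.9 CPM against 0.241, 5.75, 0.648, 0.341, 0.487 and 0.256 CPM, and its log2 fold change was 4.53 ± 0.74. Ifi27 had 171, 129, 115, 34.6 and 65.3 CPM against 39.03, 81.3, 20.7, 33.01, 11.8 and 22.1 CPM. On the other side Isg15, the ubiquitin-like modifier, had 5.59, 3.97, 4.37, 1.697 and 8.49 CPM against 46.6, 58.9, 68.6, 11.7, 3.46 and 12.4 CPM, and Rsad2 (viperin) 0.835, 3.57, 1.42, 0.686 and 2.13 CPM against 5.02, 24.3, 28.6, 3.04, 2.39 and 2.74 CPM. The mean log2(CPM + 1) over the 38 members was 4.13, 3.60, 3.48, 2.43 and 3.49 in the Ebf1-high libraries and 3.41, 4.18, 3.31, 3.07, 2.52 and 3.15 in the Ebf1-low ones. Within the Ebf1-low side the 3 libraries labelled Ifnar1 +/- were above the 3 labelled Ifnar1 -/-, and on the Ebf1-high side Ifnar1 -/- library 5 lay among the Ifnar1 +/- ones.

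Both labelled genotypes were found on both sides. Of 6 Ifnar1 +/- libraries 3 were Ebf1-high, and of 5 Ifnar1 -/- libraries 2 were, with p = 1 in Fisher's exact test, two-sided. Genotype is given by the labels and was not used to make the sides, so it could be tested. The transcript of Ifnar1 does not check the label: with the side taken into account its log2 fold change of Ifnar1 -/- over Ifnar1 +/- was 0.17 ± 0.20 (edgeR adjusted p = 0.996). A whole-gene count does not show whether the transcript is intact, and the disrupted part of the gene is not given in the labels. Between the sides, Ifnar1 was at 85.3, 68.6, 73.4, 134 and 75.5 CPM against 39.1, 50.3, 51.3, 36.4, 51.2 and 46.8 CPM, without overlap, and its partner Ifnar2 at 43.9, 49.1, 49.8, 61.00 and 47.8 CPM against 66.3, 80.9, 83.3, 55.9, 138 and 77.9 CPM, higher in most Ebf1-low libraries.

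With the side as a covariate no gene passed for genotype by edgeR's quasi-likelihood test (0 of 14520, 0%), while 194 genes had an unadjusted p under 0.05 with a higher and 225 with a lower level in Ifnar1 -/- libraries. DESeq2 called 17 genes and limma voom none. The leading lower genes included the interferon-stimulated genes Rtp4 and Oasl1 and the perforin gene Prf1. Rtp4 had 25.6, 13.3 and 6.57 CPM in the Ifnar1 +/- libraries of the Ebf1-high side and 0.361 and 3.71 CPM in the Ifnar1 -/- ones. On the Ebf1-low side Rtp4 had 2.57, 6.52 and 1.98 CPM in the Ifnar1 +/- and 0.619, 0.341 and 0.292 CPM in the Ifnar1 -/- libraries, so that the genotypes did not overlap on either side. Its log2 fold change was -3.01 ± 0.66 (edgeR adjusted p = 0.996). Oasl1 likewise did not overlap within a side, at 15.4, 10.3 and 3.83 CPM against 0.0361 and 1.904 CPM, and at 0.843, 2.39 and 2.66 CPM against 0.155, 0.195 and 0.1095 CPM. Its log2 fold change was -3.50 ± 0.81 (edgeR adjusted p = 0.996). Prf1, which encodes the pore former of cytotoxic granules, had a log2 fold change of -3.89 ± 0.78 (edgeR adjusted p = 0.996). Among genes leading upward, Rom1 had a log2 fold change of 0.91 ± 0.20 and an edgeR adjusted p of 0.996. Of the genes given here for genotype (Ifnar1, Rtp4, Oasl1, Prf1 and Rom1), DESeq2 called 4 and left 1 uncalled.

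Whether the difference between the sides depended on genotype was tested with the product of side and genotype, and no gene passed (0 of 14520, 0%). At an unadjusted p under 0.05 there were 273 genes with a higher and 141 with a lower value of the product, DESeq2 called 12 genes and limma voom none. Nrip1, a corepressor of nuclear receptors, led the list. It had 2.22, 1.35 and 1.64 CPM in Ebf1-high and 30.3, 37.2 and 46.6 CPM in Ebf1-low Ifnar1 +/- libraries. In Ifnar1 -/- libraries the values were 12.5 and 6.88 CPM against 23.6, 14.4 and 20.2 CPM. The product was 3.45 ± 0.50 on the log2 scale (edgeR adjusted p = 0.849). Nrip1 was among the genes that DESeq2 called for the product. Each combination of side and genotype held only 2 or 3 libraries.

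Within the Ebf1-high side the libraries were not all alike. The following genes were chosen after their values were seen and carry no test. Igf2bp3, an RNA-binding protein of fetal and leukaemic cells, had 102, 0.838, 4.22, 93.9 and 0.4196 CPM, so that the library numbered 3 of each genotype held nearly all of it. Ms4a1, given above, was low in the same 2 libraries. Dntt, the polymerase that adds untemplated bases during recombination, had 0.327, 46.5, 7.97, 0.325 and 177 CPM, with the lowest values again in these 2. The cyclin gene Ccnd1 had 13.9, 1.49, 2.698, 38.3 and 1.39 CPM on the Ebf1-high side and at most 2.22 CPM on the Ebf1-low side. Other genes set only 1 of the 2 apart: Enpep was nearly absent from Ifnar1 -/- library 3, and Lef1, a Wnt-responsive factor, had 4.68, 117, 108, 48.6 and 92.02 CPM with Ifnar1 +/- library 3 lowest. Over the 2000 most variable genes these 2 libraries were 0.230 apart, against 0.145 on average among the other 3 and 0.184 between the 2 and the 3, so they did not form a closer pair.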

How the data were processed

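RNA was sequenced from 11 mouse samples labelled AML. A Qiagen micro-scale kit gave the RNA and a Clontech SMART kit the libraries, per the labels' protocols. The deposited values are estimated counts per gene, and their totals differ between libraries. DRAGEN and bcl2fastq appear, without versions, in the submitters' processing notes, and the genome build behind the counts is not given in the sources used here. Of 55774 rows, 287 identical copies were dropped to leave 55487 genes, and symbols were matched by Ensembl identifier for 55141 of them. Genes left unnamed took no more than 0.0219% of the counts in any library. Positions are from GENCODE M21 and promoter windows from RefSeq, both on GRCm38.

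Estimated counts were rounded and fitted with edgeR 4.0.16 in R 4.3.3 (TMM factors, filterByExpr by genotype, glmQLFit with robust=TRUE, glmQLFTest, two-sided, Benjamini-Hochberg adjustment, threshold 0.05) with side and genotype as terms, Ebf1 left out, which left 14520 genes. SE is the absolute log2 fold change over the square root of F. Calls between the sides are a description, because the sides were cut from measured Ebf1, and no p is given for them. P-values for genotype measure the spread between these samples, since nothing says that they came from separate mice. Totals of 25583642 to 38728143 counts limit precision only for genes with few counts, and the number of libraries limits the rest. The lists (30) and the members compared were chosen with earlier results of these data known. Named genes are the markers, the 12 genes per direction with the largest fold among those called, not overlapping and with a mean of at least 20 CPM (predicted genes and immunoglobulin segments left out), up to 4 members of a list with the smallest p, 2 with the highest mean, members called against their list, and for genotype and its product with side up to 6 per direction with the smallest p. Some genes that the rule names are not reported here. Other genes (members of counts of 5 or fewer, members not called, checks of the label) were named after their values were seen. Alternatives were DESeq2 1.42.0, limma voom (limma 3.58.1) with quality weights, other scaling factors, filters, thresholds and Ebf1 limits, no genotype covariate, leaving out each library, and the replicate number as a block.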

Additional observations from a re-analysis of the deposited data

Results flagged for a closer look

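Every gene named in the text was checked within each side for a library whose gap to the nearest other, on the log2(CPM + 1) scale, exceeded Dixon's critical value for that number of libraries. Chance alone would pass about 1 in 20 such checks, and 52 of 354 passed. Some of these genes were named after their values were seen, and the same libraries enter every check. The number that passed is therefore not a test against chance. The values below are TMM-scaled CPM in the library that stood apart.

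Among the Ebf1-low libraries, Ifnar1 +/- library 2 stood apart in 19 genes, with 28.6 for Tcf3, 15.6 for Igll1, 11.5 for Vpreb3, 8.78 for Ebf1, 8.37 for Vpreb1, 5.75 for Ifi27l2a, 3.87 for Blnk, 3.16 for Spib, 2.39 for Gfra1, 1.21 for Dntt, 1.11 for Cd22, 1.08 for Pax5, 1.08 for Vpreb2, 1.04 for Rag2, 0.908 for Cxcr5, 0.874 for Tmem108, 0.7398 for Dlg2, 0.437 for Rag1 and 0.336 for Galnt14. Among the Ebf1-low libraries, Ifnar1 -/- library 2 stood apart in 14 genes, with 3092 for Itgb2, 415 for Slc7a11, 139 for Idh1, 66.4 for Bop1, 34.6 for Igf2bp3, 22.4 for Cebpb, 17.3 for Cd3d, 16.3 for Ccnd2, 8.18 for H2-DMb1, 5.65 for Cd3g, 4.43 for Havcr2, 1.997 for Ly6a, 0.3896 for Mecom and 0.0974 for Blk. Among the Ebf1-high libraries, Ifnar1 -/- library 5 stood apart in 4 genes, with 351 for Hdc, 55.2 for Pim2, 25.3 for Itgb3 and 0.323 for Hmga2. Among the Ebf1-high libraries, Ifnar1 +/- library 3 stood apart in 3 genes, with 14.02 for Foxo1, 4.68 for Lef1 and 1.31 for Sdc1. Among the Ebf1-high libraries, Ifnar1 +/- library 5 stood apart in 3 genes, with 105 for Dnmt3a, 1.74 for Ccr2 and 0.196 for Cd3e. Among the Ebf1-high libraries, Ifnar1 +/- library 4 stood apart in 2 genes, with 65.6 for Bok and 1.28 for Cd40. Among the Ebf1-low libraries, Ifnar1 +/- library 6 stood apart in 2 genes, with 523 for Add2 and 65.96 for Sptb. Among the Ebf1-high libraries, Ifnar1 -/- library 3 stood apart in 2 genes, with 143 for Il7r and 0.686 for Enpep. Among the Ebf1-low libraries, Ifnar1 -/- library 1 stood apart in 2 genes, with 332 for Plek and 0.465 for Hoxb3. Among the Ebf1-low libraries, Ifnar1 +/- library 1 stood apart in 1 gene, with 0.402 for Ms4a1.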

How the results depend on the processing

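Counts of genes called higher and lower between the sides were 2181 and 2200 with all 11 libraries. They stayed within 1.5 times under DESeq2 (2603 and 3128), its size factors (2094 and 2286), upper-quartile factors (2105 and 2187), no filter (2166 and 1999), a filter of 5 CPM in 5 libraries (1757 and 1610), no genotype covariate (2321 and 2459), a fold of at least 2 (1483 and 1752) and Ebf1 limits of 50 or 200 CPM, which gave the same sides. Limma voom with quality weights gave 3352 and 3464, and an adjusted p under 0.01 gave 1129 and 895. Leaving out each library gave 1410 to 2711 higher and 1402 to 2845 lower genes, and 0 for genotype and for its product with the side. Without Ifnar1 -/- library 2, 2123 of the higher and 2116 of the lower calls remained (97.3% and 96.2%). DESeq2 called 17 genes for genotype and 12 for the product with the side. Members called lower by DESeq2 and limma voom were 15 and 17 for erythroid (11 in the text), 14 and 16 for megakaryocyte (9) and 8 and 7 for cytokine receptor genes (5), and DESeq2 called 7 of the pre-B-cell receptor list higher (12) and gave no adjusted p for 5. Leaving out a library gave 3 to 7 lower cytokine receptor genes, 3 to 6 higher Hox genes, 2 to 4 higher BCL2 family genes and 3 to 7 lower and 2 to 4 higher STAT5 and MAPK targets. No filter moved the median log2 fold change over all genes to -0.15. With the replicate block no gene was called higher or lower (0 and 0). Nothing in the labels ties same-numbered libraries together. The correlation of their deviations from the genotype means was 0.407, 0.148, 0.583, -0.548 and 0.519 for numbers 1 to 5, where only number 4 joins libraries of opposite sides, and from the means of genotype and side it was -0.136, 0.00694, -0.0538, 0.0121 and -0.182. With no tie in the labels, the numbers were not taken as pairs. Every number other than 4 lies on a single side, so the second check removes whatever such a number shares with its side. An effect of number therefore cannot be told apart from the side. Under the block the sides are compared only within number 4.

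Named genes whose log2 fold change between the sides turned were Ngp (1.43), Prg2 (1.84) and Cebpe (0.0090) under limma voom, Ikzf3 (-1.07) without the genotype covariate, and, with the replicate block, Bax (0.0043), Cd72 (-0.86), Cebpb (0.60), Dusp6 (-0.58), Ngp (13.2), Prg2 (12.3) and Cebpe (11.7). Over the fits that leave out each library in turn, the log2 fold change between the sides crossed 0 for B2m (-0.53 to 0.18), Ikzf3 (-0.075 to 1.58), Cdk6 (-0.26 to 0.12), Mpo (-0.48 to 2.13), Ngp (-2.70 to 0.018) and Prg2 (-3.95 to 0.65). Ngp and Prg2 turned without Ifnar1 -/- library 2 alone. The genotype log2 fold change of Ifnar1 ran from -0.037 to 0.27. Of these genes, Cebpb and Dusp6 were called between the sides. The cause of these changes was not tested. Levels under 1 CPM rest on few counts, and fitted folds of such genes are imprecise.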

Other observations

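Within the Ebf1-low side different libraries were highest for different gene lists, of which a few are described here by the mean log2(CPM + 1) of a list, and the genes given here were chosen after their values were seen. Ifnar1 +/- library 1 was highest for mast-cell and basophil genes, at 8.74 against 4.56 to 7.82 in the other 5. It also had the highest levels of Gzmb (6229.8 CPM), Cpa3 (3739 CPM) and Kit (597 CPM). Ifnar1 +/- library 6 was highest for erythroid genes, at 8.73 against 4.81 to 6.57, with 35522 CPM of the alpha-globin Hba-a1, which shares reads with a near-identical copy. Ifnar1 -/- library 4 was highest for megakaryocyte and platelet genes, at 5.37 against 3.17 to 4.93, and lowest for late neutrophil genes, at 0.69 against 3.76 to 8.22. Ifnar1 -/- library 2 was highest for eosinophil genes, at 10.34 against 0.83 to 6.36, with 45019 CPM of Prg2 and 616 CPM of Cebpe, a factor of granulocyte maturation that had at most 36.8 CPM in the other 10 libraries. It was the lowest Ebf1-low library for stem-cell genes, at 2.58 against 5.23 to 5.82. The Ebf1-high libraries spanned 2.53 to 4.69 for the same stem-cell list. Nothing was tested between single libraries.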
